A study of Mus musculus with 12 samples.

Results

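The genes described here are 29 genes of myelin and of mature oligodendrocytes, out of 19031 genes with a named probe on the array. They were taken by name, as every probe annotated to them under a current or older symbol, which gave 50 of the 45135 probes. After a filter on dim probes 27 of the 29 genes and 42 of the 50 probes could be tested, among 14155 genes and 28002 probes in all. Gjb1, which encodes a gap junction protein of myelin, and Gpr37, a receptor gene of maturing oligodendrocytes, were not tested: their 3 probes read 107 to 154 intensity units, and each was detected on at most 1 of the 12 arrays.

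The series holds 12 Illumina bead arrays of brain glioma, each from a separate C57BL/6 mouse. The 6 Tlx knockout tumours came from animals labelled CRE+, and the 6 Tlx intact tumours from littermates labelled CRE-. All were of the line Nestin-CreERT2;Tlx f/f with the transgene N-Tva, so that both groups carried floxed Tlx and a Nestin-driven Tva receptor. Tamoxifen was injected 2.5 weeks after tumours were started. Cre is driven by the Nestin promoter, which is active in neural stem and progenitor cells, so that deletion takes place in cells that use it when tamoxifen is given. The sample titles number the CreERT part of the genotype differently for each animal, whereas the protocol names a single line. RNA was taken from animals with severe neurological symptoms, aged 48 to 79 days (median 61.5) in the knockout group and 38 to 51 days (median 44) in the intact group. Each tumour was a piece of whole tissue, in which fewer oligodendrocytes and less RNA per oligodendrocyte cannot be told apart. Arrays had a median signal of 134.5 to 161 intensity units and detected 50.8% to 54.8% of probes. Nr2e1, the current name of Tlx, read 5.55 ± 0.54 log2 units in knockout tumours (SD, n = 6), against 6.14 ± 0.44 in intact tumours (SD, n = 6). The difference of -0.58 did not pass the threshold (limma adjusted p = 0.405). Its probe was detected on 6 of 6 arrays in each group, and the groups overlapped, so Nr2e1 gave no firm check of the labels. Knockout replicate 4 read 6.21, the highest of its group, and intact replicate 6 read 5.37, the lowest of its group. In the mean of the myelin genes these arrays were the lowest and the highest of the 12.

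Oligodendrocytes are the cells that wrap axons of the brain and spinal cord in myelin, a stack of lipid-rich membrane that insulates the axon. They arise from progenitors that divide, leave the cell cycle, switch on the transcription factor Myrf and then make the myelin proteins and the enzymes of the galactolipids in bulk. White matter is rich in them, and many gliomas express progenitor genes while lacking the late myelin programme, so that myelin transcripts in a piece of glioma can come from brain tissue as well as from tumour cells. Here 24 of the 27 tested myelin genes (88.9%) were detected on all 12 arrays, against 66.6% of all tested genes. Ermn, Aspa and Myrf were the 3 that were not, and Gjb1 and Gpr37, too dim to test, are outside this count.

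The stretches of DNA before the start of 5 of these genes are shown because they belong to members at opposite ends of the list. Mag, Tspan2 and Mog followed the other members most closely over the arrays, and Pllp and Gal3st1 least closely, among genes detected on all arrays and leaving out Mbp. Each is the 250 bases before the first listed start of the gene, from RefSeq with build GRCm38.p6, at chr7:30914864-30915113 on the minus strand for Mag, chr3:102734520-102734769 on the plus strand for Tspan2, chr17:37023399-37023648 on the minus strand for Mog, chr8:94696243-94696492 on the minus strand for Pllp and chr11:3983386-3983635 on the plus strand for Gal3st1. Capitals mark matches, on either strand, to CTGGCAC (a motif of Myrf), CAGCTG (an E-box, which Olig factors bind), ACAAAG (a Sox motif) and AAGTCA (a Tlx half-site); none of these 4 motifs overlaps another in the stretches shown.
Mag: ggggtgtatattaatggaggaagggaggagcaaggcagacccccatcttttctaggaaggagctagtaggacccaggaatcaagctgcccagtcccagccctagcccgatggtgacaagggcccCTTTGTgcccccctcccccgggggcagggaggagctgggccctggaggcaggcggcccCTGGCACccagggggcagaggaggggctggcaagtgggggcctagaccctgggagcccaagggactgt
Tspan2: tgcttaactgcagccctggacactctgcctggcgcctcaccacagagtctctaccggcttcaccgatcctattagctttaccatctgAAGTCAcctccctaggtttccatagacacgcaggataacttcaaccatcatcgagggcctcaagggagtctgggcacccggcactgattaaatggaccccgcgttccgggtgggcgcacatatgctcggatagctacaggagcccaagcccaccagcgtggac
Mog: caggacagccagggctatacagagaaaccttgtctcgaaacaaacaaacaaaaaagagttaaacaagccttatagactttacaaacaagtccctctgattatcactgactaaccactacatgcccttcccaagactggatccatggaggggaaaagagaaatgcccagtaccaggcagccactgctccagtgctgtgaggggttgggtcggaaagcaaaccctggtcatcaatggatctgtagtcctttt
Pllp: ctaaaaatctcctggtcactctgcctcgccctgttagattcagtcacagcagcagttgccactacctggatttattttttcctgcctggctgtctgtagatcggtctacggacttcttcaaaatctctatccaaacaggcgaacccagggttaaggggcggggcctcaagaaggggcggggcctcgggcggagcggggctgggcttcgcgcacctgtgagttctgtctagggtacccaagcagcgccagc
Gal3st1: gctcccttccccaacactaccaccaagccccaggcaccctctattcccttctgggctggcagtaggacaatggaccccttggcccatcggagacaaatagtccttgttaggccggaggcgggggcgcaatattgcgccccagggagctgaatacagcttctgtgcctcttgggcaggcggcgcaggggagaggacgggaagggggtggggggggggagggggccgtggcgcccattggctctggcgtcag

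Mag held 1 CTGGCAC and 1 match to ACAAAG, Tspan2 held 1 AAGTCA, and the other 3 stretches held none of the letters searched. Of the 29 members 21 had a listed promoter. CTGGCAC was found in 2 of these 21 (9.52%), Mag and Cnp, against 4.14% of the 27025 promoters listed. ACAAAG was found in 5 (23.8%, against 16.5% of all), with 6 matches in the 250 bases before Mobp. CAGCTG was found in 2 (9.52%, against 12.8%) and AAGTCA in 1 (4.76%, against 13.1%). A match describes the letters of these windows and not a bound site.

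No myelin gene passed the test between knockout and intact tumours. By limma with Benjamini-Hochberg adjustment over all 14155 genes, 0 of 27 members were called higher and 0 lower, beside 0.00706% of all genes in each direction and 0.0141% in either, and the adjusted p of the members lay between 0.292 and 0.999. At an unadjusted p below 0.05, 1 member was higher and 0 were lower, beside 6.22% and 5.72% of all genes. Over the 42 tested member probes, 1 was higher (Myrf, near background) and 4 were lower at that level. The 4 were Mog and the second probes of Ugt8a, Mal and Gsn, and 0 of the 42 passed after adjustment. The share over all tested probes was not taken, and over all genes it was 11.9% in either direction. Mog counts as lower only in the fit over probes, where its limma p was 0.047, against 0.051 for the same probe in the fit over genes. In 0 of 27 members did the arrays of the groups fail to overlap, beside 0.650% of all genes. The fitted difference, log2 knockout minus intact, was below 0 in 21 of 27 members and above 0 in 6, with a median of -0.26, while over all genes tested 50.4% were below 0 and the median was -0.0026. These counts describe the list and were not tested, since the members were chosen with results of these data known. They include Aspa below 0 and Myrf above 0, whose probes entered the fit only through the brighter group. Without 1 array the median lay between -0.46 and -0.18, and it was over 1.5 times as large without knockout replicate 1 (-0.46), intact replicate 3 (-0.41) or intact replicate 4 (-0.38).

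The sign of that shift went with the order of columns in the deposited table. Of the first 6 columns 5 are knockout arrays and 1 is intact, and of the last 6 columns 1 is knockout and 5 are intact. Within the first 6 columns 12 of 27 members were lower in knockout, with a median difference of 0.034, and within the last 6 columns 7 of 27 were lower, with a median of 0.30. With the column block in the fit 9 of 27 members were below 0, with a median of 0.17, and none was called. The sources used here do not say what the column order stands for, and with 1 array of the smaller group in each block its part cannot be told apart from that of Tlx with any precision.

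**Figure D1:**
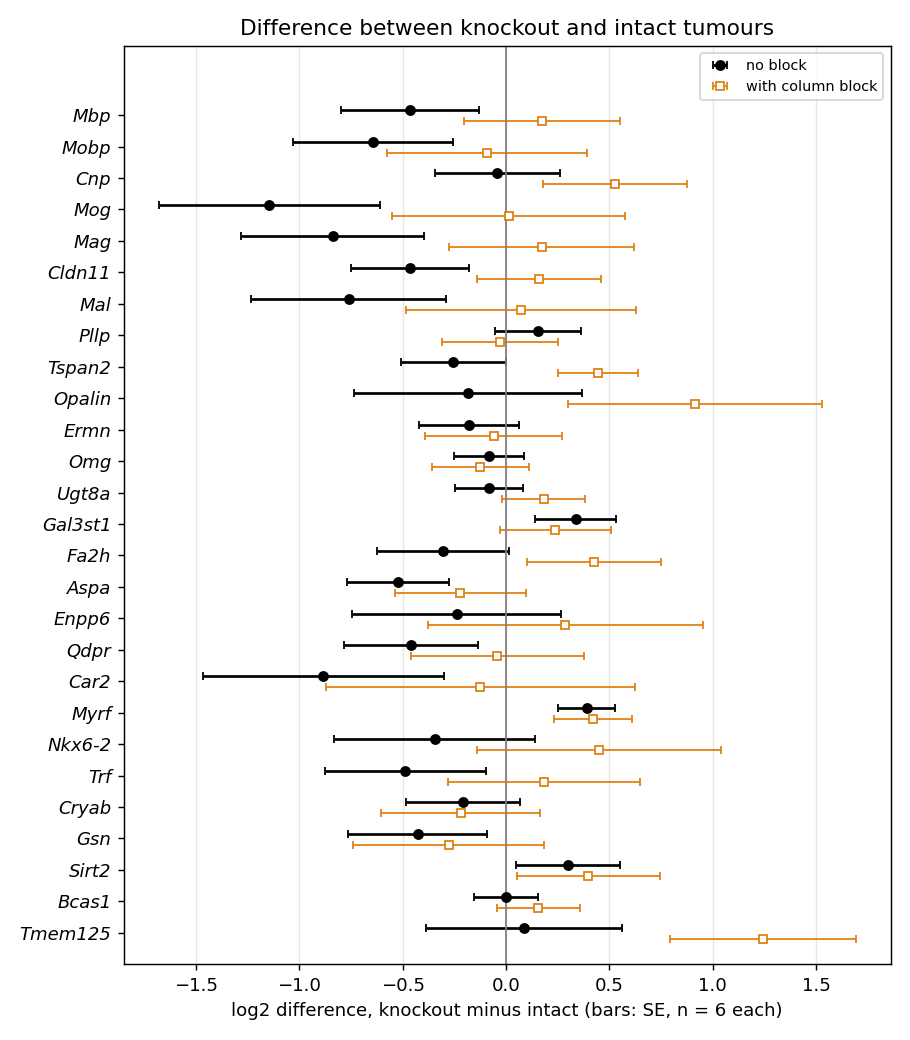
Log2 difference, knockout minus intact, of the 27 tested members (black circles, no block; orange squares, with the column block; bars are SE). Without the block 21 of 27 circles lie left of 0, and with it 9 of 27 squares do.

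The structural proteins of the sheath included Mog, the member with the widest difference. Of 13 such genes 12 were tested, 11 were below 0 and 1 above, with a median of -0.36 and 0 called (limma adjusted p from 0.423 to 0.973). Mog encodes a glycoprotein of the outermost myelin layer. It read 7.34 at the lowest, 7.92 at the median and 10.05 at the highest in knockout tumours, against 8.30, 9.51 and 11.18 in intact tumours. Most knockout tumours lay below most intact ones, but knockout replicate 1 was above 4 of 6 intact tumours and the groups overlapped. Mog differed by -1.14 (SE 0.53, adjusted p = 0.423), which is a fold of 0.453; the column block moved this to 0.0127 (SE 0.56).

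Mag, an adhesion protein of the membrane that faces the axon, ran from 10.13 over a median of 11.01 to 12.87 in knockout tumours and from 11.18 over 12.08 to 13.10 in intact tumours. The knockout group spread over a wider range at its low end, where knockout replicates 3, 4 and 5 were below every intact tumour. Mag differed by -0.84 (SE 0.44, adjusted p = 0.483) and, under the column block, by 0.17. A second, dim Mag probe differed by -0.34.

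Mbp, the basic protein that holds the faces of compact myelin together, ran from 12.19 over 13.41 to 14.39 in knockout and from 13.25 over 13.95 to 14.64 in intact tumours. Only knockout replicate 4 was below every intact tumour. Mbp differed by -0.46 (SE 0.33, adjusted p = 0.619), by -0.20 without that array and 0.18 with the column block. The other 4 Mbp probes differed by -1.08, 0.25, -0.85 and -0.36, and none passed. The probes at -1.08 and 0.25 are annotated to the same transcript, and those at -0.85 and -0.36 share another. Mobp, a further basic protein of compact myelin, had 5 probes that were all lower in knockout tumours, by 0.19 to 0.92 log2 units. The brightest ran from 9.61 over 10.67 to 11.50 in knockout and from 10.55 over 11.14 to 12.46 in intact tumours (difference -0.64, SE 0.39, adjusted p = 0.538). Without intact replicate 6 it was at -0.41, and with the column block at -0.09.

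Mal, a small membrane protein of myelin that takes part in sorting to glycolipid-rich membrane, read 6.95, 7.996 and 9.16 at the lowest, median and highest knockout tumour and 7.84, 8.86 and 10.30 in intact tumours. Its 2 brighter probes gave close differences of -0.76 (SE 0.47, adjusted p = 0.556) and -0.80, and the remaining probe was too dim to test. Cldn11, the claudin that forms the tight junctions between myelin layers, ran from 12.50 over 13.61 to 14.58 in knockout and from 13.49 over 14.15 to 14.37 in intact tumours, so that the highest and the lowest of the 12 were both knockout tumours (difference -0.46, SE 0.29, adjusted p = 0.554). Without knockout replicate 3 Cldn11 was at -0.24, and with the column block at 0.16.

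Other sheath genes differed by less than their standard error or close to it. Cnp, an enzyme of uncompacted myelin that also marks earlier oligodendrocytes, ran from 10.13 to 12.36 in knockout and from 10.88 to 11.68 in intact tumours, a difference of -0.041 (SE 0.30, adjusted p = 0.973), and its second probe was at -0.37. Tspan2, a tetraspanin, was at -0.26 (SE 0.25), and Opalin, a membrane glycoprotein specific to oligodendrocytes, at -0.18 (SE 0.55) with knockout values from 6.61 to 10.07 and intact values from 7.50 to 10.39. Omg, an inhibitor of axon outgrowth made by oligodendrocytes and neurons, was at -0.083 (SE 0.17), and Ermn, a cytoskeletal protein of late oligodendrocytes, at -0.18 (SE 0.24) with a probe seen on 3 of 6 arrays of either group. Pllp, a relative of Mal, was the sheath gene above 0, at 0.16 (SE 0.21, adjusted p = 0.803), with knockout values of 11.36 to 11.90 inside the intact range of 11.08 to 12.23.

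**Figure D2:**
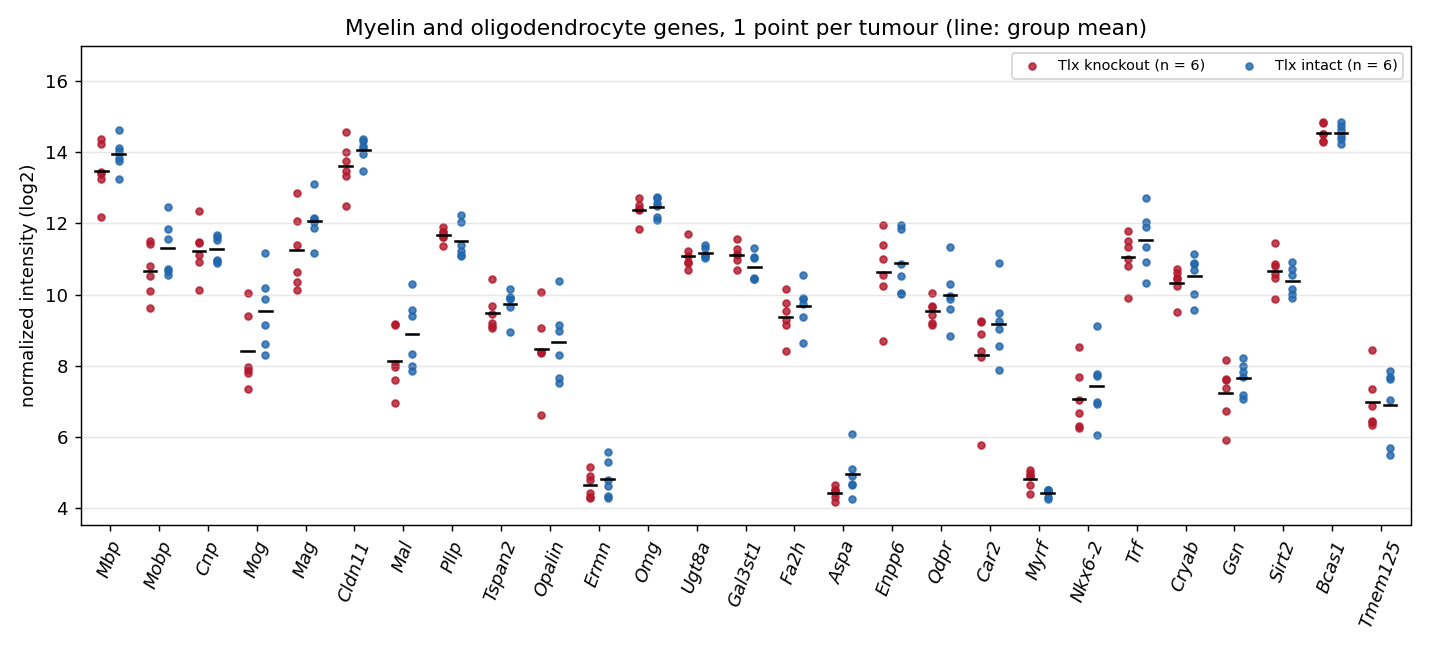
Normalized log2 intensity of the 27 tested members in each tumour (red, 6 Tlx knockout; blue, 6 Tlx intact; black line, group mean). The groups overlap for each gene, and Mog, Mag, Mal and Car2 have the knockout mean 0.76 to 1.14 below the intact mean.

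Enzymes of lipid and metabolism gave 6 of 7 members below 0, with a median of -0.30 and 0 called. The 6 include Aspa, whose probe entered the fit only through its brighter group and supports no direction. Ugt8a makes galactosylceramide, and Gal3st1 adds the sulfate that turns it into sulfatide, so they stand in succession in the synthesis of the myelin galactolipids. Ugt8a ran from 10.68 over 10.999 to 11.69 in knockout and from 11.02 over 11.10 to 11.39 in intact tumours, a difference of -0.081 (SE 0.17, adjusted p = 0.875). Its dimmer second probe was at -0.78 (SE 0.30, adjusted p = 0.308 over all probes). Gal3st1 ran from 10.69 over 11.13 to 11.55 in knockout and from 10.44 over 10.73 to 11.32 in intact tumours. Its difference of 0.34 (SE 0.20, adjusted p = 0.520) had the opposite sign to most members, and stayed above 0 at 0.24 with the column block and between 0.25 and 0.45 without 1 array.

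Fa2h hydroxylates the fatty acids of these galactolipids, and was at -0.30 (SE 0.32). Car2, a carbonic anhydrase of oligodendrocytes that red cells and choroid plexus also make, had the widest enzyme difference, -0.88 (SE 0.58, adjusted p = 0.585). It read 5.77, 8.65 and 9.26 at the lowest, median and highest knockout tumour and 7.87, 9.14 and 10.90 in intact tumours, and the lowest value is that of knockout replicate 4, without which the difference was -0.38. With the column block Car2 was at -0.12 (SE 0.75). Markers of red cells, whose list mean ran from -1.59 to 1.69 in knockout and from -1.48 to 1.90 in intact tumours, and of choroid plexus and ependyma, from -1.99 to 1.15 and from -1.43 to 1.34, varied widely in both groups, and their part in Car2 was not tested. On knockout replicate 4 the mean of the 3 tested red cell markers was the highest of its group while Car2 was the lowest. This is 1 array, and no conclusion is drawn from it.

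Qdpr, which regenerates tetrahydrobiopterin, was at -0.46 (SE 0.33), with intact replicate 6 at 11.34 against 8.84 to 10.31 in the other intact tumours. Without that array Qdpr was at -0.19, and with the column block at -0.041. Enpp6, a choline phosphodiesterase of newly forming oligodendrocytes, was at -0.24 (SE 0.50) and ran from 8.69 to 11.94 in knockout and 10.01 to 11.97 in intact tumours. Aspa, which breaks down N-acetylaspartate, passed detection in 0 of 6 knockout tumours and 3 of 6 intact tumours, and so entered the fit only through its brighter group. The measured means were 4.41 in knockout and 4.93 in intact tumours (difference -0.52, adjusted p = 0.431). The difference was -0.29 without intact replicate 6, which read 6.08, and it supports no direction.

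Both transcription regulators rested on modest signals. Myrf, the factor that switches on the late myelin genes, had the smallest p among the members, and did not pass. Its probe passed detection in 4 of 6 knockout tumours and 0 of 6 intact tumours, at raw signals of 119 to 156 intensity units on all 12, and so entered the fit only through the group in which it was brighter. Its measured means were 4.80 in knockout and 4.41 in intact tumours (fitted difference 0.39, SE 0.14, adjusted p = 0.292), and the fit of a probe that entered in this way supports no direction. It read 4.37 to 5.05 in knockout and 4.23 to 4.50 in intact tumours, so the groups overlapped, and a second Myrf probe was detected on no array. Nkx6-2, a homeobox factor of myelinating oligodendrocytes, was at -0.35 (SE 0.49), from 6.25 to 8.52 in knockout and 6.03 to 9.12 in intact tumours, and its second probe was at -0.22.

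The remaining members gave no common direction, with 3 of 6 below 0. Trf, the iron carrier transferrin that oligodendrocytes secrete, was at -0.49 (SE 0.39, adjusted p = 0.655), from 9.90 over 11.16 to 11.78 in knockout and from 10.31 over 11.62 to 12.71 in intact tumours. Without intact replicate 6 Trf was at -0.25, and with the column block at 0.18. Gsn, which severs actin filaments, was at -0.43 (SE 0.33), and its dimmer probe at -0.92 (SE 0.34, adjusted p = 0.281 over all probes) had the smallest p among the 34 of 42 tested member probes below 0. Cryab, a small heat shock protein that astrocytes make too, was at -0.21 (SE 0.28). Sirt2, a deacetylase of tubulin in oligodendrocytes, was at 0.30 (SE 0.25), from 9.88 to 11.46 in knockout and 9.90 to 10.91 in intact tumours. Tmem125 was at 0.089 (SE 0.47) and 1.24 (SE 0.45, adjusted p = 0.541) with the column block, the widest value of the 27 members under that fit. Bcas1, a marker of oligodendrocytes that are beginning to myelinate, read 14.29 to 14.86 in knockout and 14.25 to 14.84 in intact tumours, a difference of 0.0003 (SE 0.15).

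The members split by how they varied from tumour to tumour. Pearson's r of each gene with the mean of the other tested members, over the 12 arrays, was above 0.5 for 16 of 27, led by Mag (0.97), Mbp (0.93), Tspan2 and Mog (0.90 each), Fa2h and Mal (0.87 each). It was below 0 for 4, Ermn, Myrf, Pllp (-0.45) and Gal3st1 (-0.49), of which Ermn and Myrf have dim probes. The other 7 lay between, with Sirt2 at 0.06, Cryab at 0.17, Bcas1 at 0.24, Omg at 0.26, Gsn at 0.28, Enpp6 at 0.29 and Ugt8a at 0.43. Among the 351 pairs of members the median r was 0.26. These values share arrays and normalization and are a description, with no test. The share of all genes with an r above 0.5 was not taken.

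**Figure D3:**
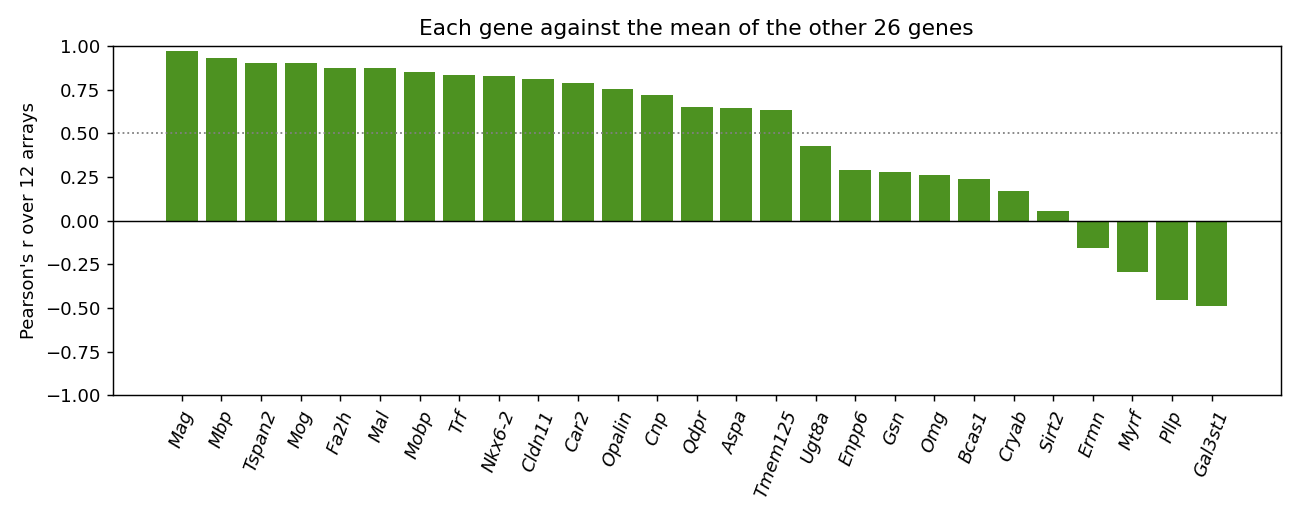
Pearson's r over the 12 arrays between each tested member and the mean of the other members (bars; dotted line at 0.5). Bars above the line belong to 16 genes led by Mag at 0.97, and Pllp and Gal3st1 are lowest at -0.45 and -0.49.

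Differences between tumours of the same group were wide for these genes. The median within-group SD was 0.62 log2 units among the members, against 0.35 over all genes tested. The members were also brighter, with a median level of 10.42 against 7.11, so these SDs are not matched for level. Across the 12 tumours 16 of 27 members spanned over 2 log2 units. The share of all genes that did so was not taken. Averaged over the 27 members as deviations from each gene's mean, tumours read 0.57, -0.15, -0.52, -0.68, -0.30 and 0.22 for knockout replicates 1 to 6 and 0.02, 0.23, -0.35, 0.11, 0.14 and 0.71 for intact replicates 1 to 6. The knockout mean was -0.14 ± 0.47 and the intact mean 0.14 ± 0.34 (SD, n = 6 each). Knockout replicate 1 was above 5 of 6 intact tumours and intact replicate 3 below 4 of 6 knockout tumours, and these are the 2 arrays that sit in the block of columns of the other group. The last 6 columns read 0.02 to 0.71 and the first 6 columns -0.68 to 0.22.

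The 6 named genes outside the list that followed this average most closely were Dbndd2 (r = 0.94), Pkp4 (0.94), Plekhg3 (0.94), Apbb1 (0.94), Nkain2 (0.93) and Sema4a (0.93), over 12 arrays. Having been chosen for following the members' mean on these same arrays, they share its differences between the groups, and none was called.

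Other myelin genes also lay mostly below 0. Of 38 genes of mature oligodendrocytes outside the list 31 were tested, of which 21 were below 0 and 10 above, with a median of -0.23 and 0 called. Hapln2, a link protein of the nodes of Ranvier, was at -1.75 (SE 0.61, adjusted p = 0.284) with 5.46 ± 0.95 in knockout tumours (SD, n = 6) and 7.21 ± 1.44 in intact tumours (SD, n = 6). Anln, an actin-binding protein of cell division that oligodendrocytes also use, was at -0.61 (SE 0.19) and the sphingosine receptor gene S1pr5 at -0.67 (SE 0.28), while Cdc42ep1 was at 0.89 (SE 0.31), with adjusted p from 0.247 to 0.371. With the column block Hapln2 was at -1.68 (SE 0.84), Anln at -0.68 and S1pr5 at -0.36, and Cdc42ep1 was at 0.73.

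Earlier steps of the lineage had medians on the other side of 0. Of 12 tested genes of newly formed oligodendrocytes 8 were above 0 and 4 below (median 0.24, 0 called). Ddr1, a collagen receptor, was at 1.06 (SE 0.30, adjusted p = 0.214), Lims2 at 0.42 (SE 0.22) and Itpr2, a calcium channel of this stage, at 0.29 (SE 0.19), while Tcf7l2, a transcription factor that is transiently on as oligodendrocytes differentiate, was at -0.69 (SE 0.35). Of 18 tested lineage regulators 13 were above 0 (median 0.14, 0 called), among them Zeb2 (0.75, SE 0.25, adjusted p = 0.272), Nkx2-2 (0.65, SE 0.26), Olig2 (0.41, SE 0.25) and Olig1 (0.20, SE 0.11). The Zeb2 value rests on its brightest probe, and the mean of its probes was at -0.12. Of 9 tested progenitor markers 8 were above 0 (median 0.12, 0 called), among them the proteoglycan gene Cspg4 (0.71, SE 0.27, adjusted p = 0.340), Cacng4 (0.60, SE 0.32), Lhfpl3 (0.23, SE 0.25) and Matn4 (0.18, SE 0.17). With the column block Ddr1 was at 1.06, Lims2 at 0.59, Zeb2 at 0.52, Nkx2-2 at 0.45, Cacng4 at 0.36, Itpr2 at 0.18 and Olig1 at 0.12. Under that fit Cspg4 was at 0.16 and Olig2 at 0.07, while Tcf7l2 (0.08), Lhfpl3 (-0.38) and Matn4 (-0.08) turned in sign.

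Markers of neurons and astrocytes also lay mostly below 0. All 13 tested neuron markers were lower in knockout tumours by fitted value (median -1.13, 0 called), as were 9 of 10 astrocyte markers (median -0.77, 0 called). The mean of the neuron markers ran from -1.54 to 0.49 in knockout and from -1.08 to 1.58 in intact tumours, and that of the astrocyte markers from -1.49 to 0.44 and from -0.32 to 0.81. Knockout replicate 4 was lowest and intact replicate 6 highest of the 12 for myelin, neuron and astrocyte genes alike. The kinase gene Camk2a and the nuclear neuron marker Rbfox3 were at -1.47 and -1.39, and the glutamate transporter gene Slc1a2 and the receptor gene Ntsr2 at -0.93 and -0.84. With the column block these 4 genes, chosen by smallest p in their lists, stayed below 0, at -0.39, -0.35, -0.60 and -0.64. The medians of the neuron and astrocyte lists under that fit were not taken. Within the last 6 columns the list means differed by 0.33 for the myelin genes, -0.71 for neuron markers and -0.37 for astrocyte markers. Within the first 6 columns they differed by 0.07, 0.47 and -0.05, and each block has 1 array of its smaller group. Intact replicate 3 had the lowest mean of its group for all 3 lists. The part of neighbouring brain tissue in the myelin values was not tested.

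Markers of other cell types varied too. Of the 9 tested microglia and macrophage markers 7 were above 0 and 2 below (median 0.14, 0 called). The 2 were P2ry12 (-2.13, SE 0.57, adjusted p = 0.212) and Itgam (-0.61, SE 0.20, adjusted p = 0.269). The mean of the 9 ran from -0.95 to 0.75 in knockout and from -0.41 to 0.93 in intact tumours, and that of 8 endothelial markers from -0.25 to 0.30 and from -0.48 to 0.25. For peripheral myelin, which Schwann cells make, 3 of 6 markers were tested, with means of -0.25 to 0.67 in knockout and -0.29 to 0.44 in intact tumours.

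**Figure D4:**
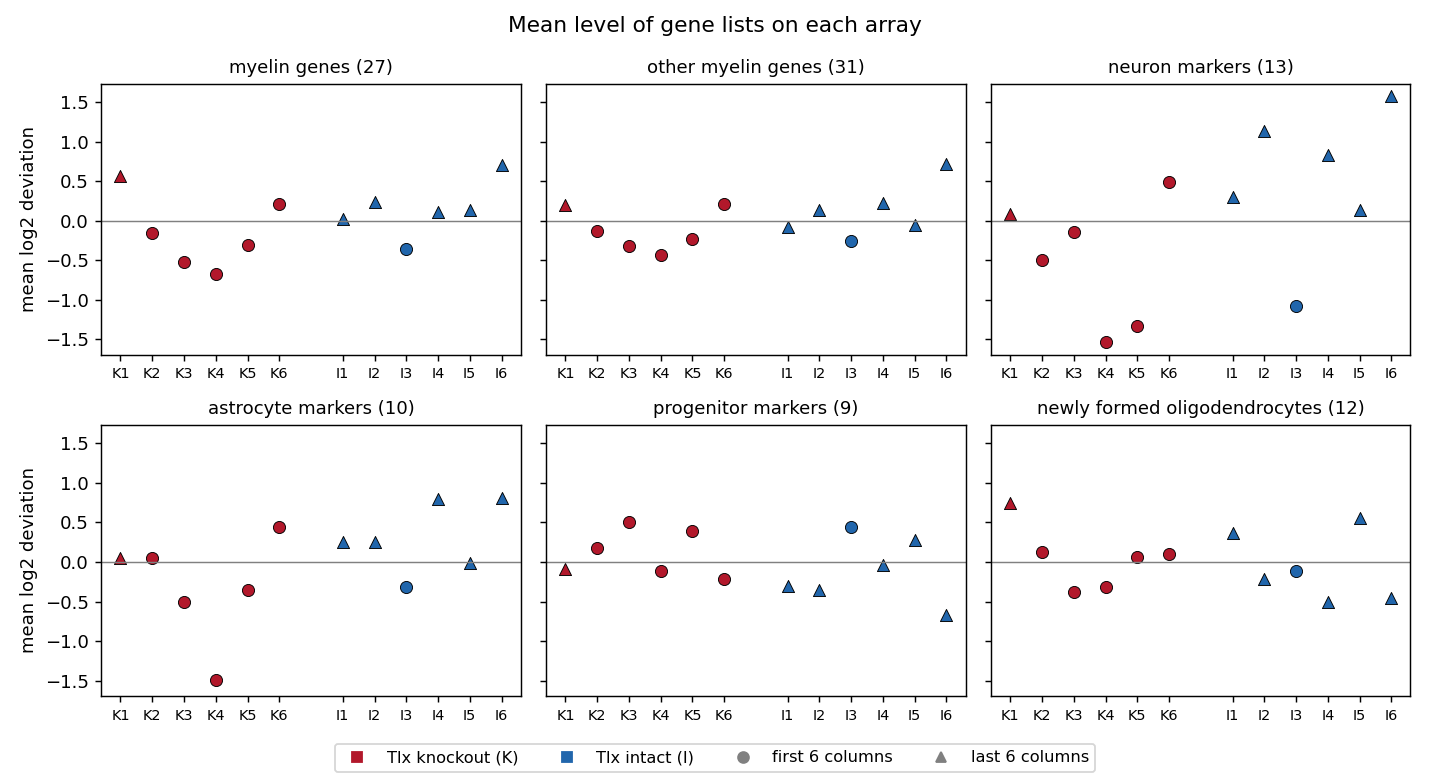
Mean log2 deviation of 6 gene lists on each array (red, Tlx knockout replicates 1 to 6; blue, Tlx intact replicates 1 to 6; circles, first 6 columns of the deposited table; triangles, last 6 columns). Knockout replicate 4 is lowest and intact replicate 6 highest for myelin genes, neuron markers and astrocyte markers.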

How the data were processed

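Total RNA of 12 gliomas was hybridised as biotinylated cRNA, per the labels' protocols. The authors deposited a linear signal intensity and detection p-value per probe (45135 probes), without normalization between arrays, per the file headers. They also deposited a table of normalized intensity for 45134 probes, used as an alternative, whose method the sources used here do not give. Probes were named from the platform annotation, updated through Entrez identifiers against GRCm38.p6: 34772 had 1 gene, 18 several and 10345 none.

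The neqc function of limma 3.58.1 (R 4.3.3) gave quantile-normalized log2 values with an offset of 16. Probes needed a detection p below 0.05 on 3 or more arrays, and a gene was represented by its kept probe of highest mean. The groups of 6 animals were compared by lmFit and eBayes (two-sided; threshold 0.05 after Benjamini-Hochberg over 14155 genes), and the script was tested on simulated data. The number of arrays limits precision. Replicates were numbered in deposition order. The members and lists were chosen with earlier results of these data known. The text names all members, Nr2e1, up to 4 genes of each other oligodendrocyte list and up to 2 of each other cell type by smallest p, and the 6 genes most correlated with the members' mean. Of the other cell types, neuron, astrocyte and microglia genes are given. Alternatives were the background correction, normalization, filter, probe rule, array weights, age, column block, animal number series and leaving out each array.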

Additional observations from a re-analysis of the deposited data

Results flagged for a closer look

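In groups of 6 tumours, a value that lay apart from the rest by a wide share of the group's range was found in 2 of 54 groups (27 genes in 2 groups each), both on knockout replicate 4; chance alone flags about 1 in 20 groups. Car2 read 5.77 on that array, against 8.24 to 9.26 in the other knockout tumours. Omg read 11.85 there, against 12.39 to 12.71.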

How the results depend on the processing

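The count of members called was 0 higher and 0 lower under each alternative run, while 21 of 27 members below 0 became 18 to 23 without 1 array and the median ran from -0.46 to -0.18. Normalization, filter and probe rule left the sign of each tested member as it was. The column block turned the median to 0.17 and the count below 0 to 9. It also turned Mbp (0.18), Mog (0.0127), Mag (0.17), Cnp (0.53), Cldn11 (0.16), Opalin (0.92), Ugt8a (0.18), Enpp6 (0.29), Trf (0.18), Mal (0.0733), Fa2h (0.43), Tspan2 (0.45), Nkx6-2 (0.45) and Pllp (-0.027), and outside the list Tcf7l2 (0.079), Matn4 (-0.0802), Lhfpl3 (-0.38), Dbndd2 (0.12), Pkp4 (0.0696), Plekhg3 (0.061), Apbb1 (0.12), Nkain2 (0.34) and Sema4a (0.52); the cause was not tested. Age as a covariate turned Enpp6 (0.10), Gsn (0.29) and Omg (0.027), and left 18 of 27 members below 0, with a median of -0.25. Knockout animals were 48 to 79 days old and intact animals 38 to 51. The part of age therefore cannot be told apart from that of Tlx with any precision. Array weights turned Cnp (0.038), Tmem125 (-0.011) and Omg (0.059), the animal number series Bcas1 (-0.013), and the mean of probes Zeb2 (-0.12). Without 1 array, Bcas1 ran from -0.061 to 0.057, Cnp from -0.27 to 0.18, Enpp6 from -0.50 to 0.15, Omg from -0.16 to 0.022, Opalin from -0.50 to 0.19 and Tmem125 from -0.21 to 0.28. Other members shrank by over 1.5 times without a single array: Mal to -0.48 and Nkx6-2 to -0.0046 without intact replicate 6. Fa2h went to -0.11 without knockout replicate 4, Tspan2 to -0.17 without knockout replicate 3 and Gsn to -0.16 without knockout replicate 5. Cryab went to -0.044 without knockout replicate 2, Ermn to -0.025 without intact replicate 2 and Ugt8a to -0.0017 without knockout replicate 6. Above 0, Sirt2 went to 0.14 without knockout replicate 1 and Pllp to 0.069 without intact replicate 6. Added after seeing the data, counting the 24 members detected on all arrays gave 19 below 0 and a median of -0.28, and counting 42 member probes gave 34 below 0 and a median of -0.35. No paired analysis was possible because replicate numbers were given in deposition order and pair no animals. Dim probes (Ermn, Aspa, Myrf, Gjb1, Gpr37) limit what can be said of those genes.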
